A study of Chlorocebus sabaeus with 3 samples.

Results

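The 10 genes described here encode antimicrobial proteins and gland products of the tear film, and they were read on every probe set of the array whose only gene symbol was one of them. All 10 genes had such a probe set, and together they had 15 probe sets, among 19775 genes with a single-symbol probe set on the array. The genes were LTF, LYZ, LCN1, SLPI, PI3, WFDC2, PIGR, SCGB1D1, SCGB2A1, and PIP. They form a set by the known roles of their proteins. The rule holds no threshold on a measured value, but the genes were chosen with earlier results of these arrays known, so their counts are no independent evidence of a direction.

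The samples came from the eye surface of the vervet monkey (Chlorocebus sabaeus), with 1 array each for the conjunctiva, the limbus, and the cornea, and 3 arrays in all. No treatment is named. The labels give no age, and the study's methods give a narrow age range for the animals without tying an age to an array. The study states that the tissues were taken from the same eye, and how many eyes were used for an array is not given in the sources used here. The cornea and the limbus were dissected as epithelium with part of the stroma beneath it, and the conjunctiva was dissected with the underlying Tenon's capsule, so each RNA came from several cell types. Because the arrays carry probes for human transcripts, the level of a gene depends on how well its probes match the monkey sequence, and levels of different genes are not set against each other. Values are RMA intensities on a linear scale. Since each tissue has 1 array, no replicate error exists, no test was possible, and a difference of at least 2-fold is given as a description of these arrays only.

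Tears carry proteins made by the lacrimal gland, by small accessory glands within the conjunctiva, and by the surface epithelium itself. Lactoferrin binds iron that bacteria need, lysozyme cuts the bacterial cell wall, and tear lipocalin and the secretoglobins carry small hydrophobic molecules. The whey acidic protein (WAP) domain proteins SLPI, elafin (encoded by PI3), and WFDC2 are small secreted proteins, of which the former pair inhibit neutrophil elastase. The polymeric immunoglobulin receptor moves IgA across an epithelium into the secretion.

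Most of the genes had their highest transcript level in the conjunctiva. There 7 of the 10 genes were at least 2-fold higher than in both other tissues, compared with 1.68% of all genes. These 7 were LTF, LYZ, LCN1, SCGB1D1, SCGB2A1, WFDC2, and PIGR. SLPI was shared by the conjunctiva and the limbus, PI3 was highest in limbus on its main probe set, and PIP did not differ by 2-fold between any tissues. None of the 10 was highest in cornea, and 6 were lowest there. The median difference between the conjunctiva and the cornea was 3.12 on the log2 scale over the 10 genes and -0.01 over all genes. Between the conjunctiva and the limbus it was 2.05 over the 10 genes and 0.04 over all genes.

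**Figure D1:**
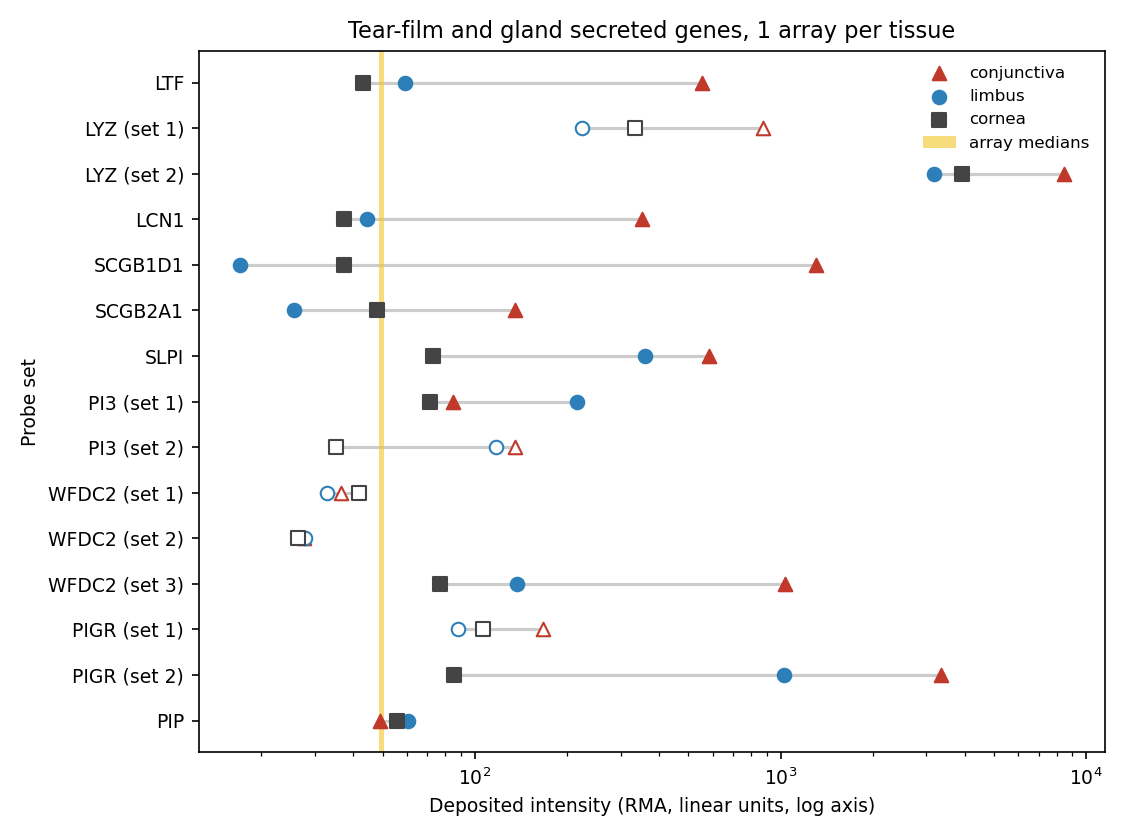
Deposited intensity (x axis, log scale) of all 15 probe sets of the 10 genes (y axis) in conjunctiva (triangles), limbus (circles), and cornea (squares), 1 array per tissue. Filled symbols mark the probe set used for a gene, open symbols its other probe sets, and the yellow band the medians of the arrays, 48.8 to 50.7; triangles lie farthest to the right on 11 of the 15 probe sets.

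Lactoferrin and lysozyme act directly on bacteria. The single LTF probe set (202018_s_at) had a value of 553 in conjunctiva, 59.3 in limbus, and 43.0 in cornea. The conjunctiva was thus 12.9-fold above the cornea and 9.32-fold above the limbus, while the limbus and the cornea both lay near the median of their arrays. The LYZ probe set used here (213975_s_at) had a value of 8426 in conjunctiva, 3166 in limbus, and 3907 in cornea. LYZ was therefore well above the array median in every tissue, and its excess in the conjunctiva was smaller, at 2.16-fold over the cornea and 2.66-fold over the limbus. The other LYZ probe set (1555745_a_at) gave the same order, with 880 in conjunctiva, 224 in limbus, and 334 in cornea. The difference of LYZ between the limbus and the cornea, -0.30 on the log2 scale, turned to 0.12 with quantile normalization of the 3 arrays and to 0.35 when each array was divided by its hybridization controls, so the order of these tissues for LYZ depends on the scaling.

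Both LTF and LYZ are also made by leukocytes, LTF by neutrophils and LYZ by neutrophils and macrophages. Of 14 neutrophil granule genes measured, 1 (CEACAM6, which epithelia also express) was at least 2-fold higher in conjunctiva than in cornea, and 0 were 2-fold higher there than in both other tissues. Myeloperoxidase (MPO) was at 26.1, 31.5, and 29.8 and neutrophil elastase (ELANE) at 52.4, 40.6, and 40.5 in conjunctiva, limbus, and cornea, respectively. The receptor CSF3R was at 170, 141, and 138 in the same order on its main probe set, and 1 of its 2 probe sets was highest in conjunctiva. CEACAM6 was at 712, 440.4, and 198, the antimicrobial peptide CAMP at 110, 106, and 88.1, and PGLYRP1, which binds bacterial peptidoglycan, at 142, 105, and 77.1, in the same order. Of 14 macrophage genes, 7 were at least 2-fold higher in conjunctiva than in cornea, and 2 were higher than in both other tissues. The signaling adaptors TYROBP (183, 121, and 32.8) and FCER1G (164, 78.6, and 28.3) and the mannose receptor MRC1 (115, 79.4, and 23.7) were ordered conjunctiva, limbus, cornea from high to low. Over the 14 macrophage genes the median difference between the conjunctiva and the cornea was 1.10 on the log2 scale. Between the limbus and the cornea it was 0.52, and for LYZ the sign of that comparison depended on the scaling. The part of neutrophils in the LTF and LYZ values and that of macrophages in the LYZ values were not tested. In whole tissue more cells of a type and more RNA per cell cannot be told apart.

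The ligand carriers had signal above the array median in conjunctiva only. Tear lipocalin (LCN1, probe set 207930_at) had a value of 354 in conjunctiva, 44.3 in limbus, and 37.4 in cornea. The conjunctiva stood alone, at 9.45-fold over the cornea and 7.97-fold over the limbus. SCGB1D1 (lipophilin A, probe set 207910_at) had a value of 1304 in conjunctiva, 17.1 in limbus, and 37.3 in cornea, which is 34.9-fold over the cornea and 76.4-fold over the limbus. SCGB2A1 (mammaglobin B, probe set 205979_at), which is known to pair with lipophilins in tears, had a value of 136 in conjunctiva, 25.6 in limbus, and 47.9 in cornea. Its conjunctival value was 2.83-fold above the cornea and 5.30-fold above the limbus. For all 3 carriers the limbus and the cornea lay below the medians of their arrays, where a ratio rests on little signal. SCGB1D1 was the 1 gene of the 10 at least 2-fold higher in cornea than in limbus, as were 2.51% of all genes, and with a pseudocount of 32 it no longer was.

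The secretoglobins are a family of close relatives, and human probes can bind more than 1 of them. SCGB1D2, the closest measured relative of SCGB1D1, was at 18.8 in conjunctiva, 19.9 in limbus, and 16.8 in cornea. SCGB2A2, the relative of SCGB2A1, was at 10.3, 14.1, and 14.9, in the same order. Neither relative was above the array median in any tissue. Of the 5 other secretoglobins measured, SCGB3A1 alone was at least 2-fold higher in conjunctiva than in both other tissues, with 1184 in conjunctiva, 433 in limbus, and 63.5 in cornea.

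The protease inhibitors of the WAP family did not share a pattern. WFDC2 (probe set 203892_at) had a value of 1032 in conjunctiva, 138 in limbus, and 77.3 in cornea, so that the conjunctiva was 13.4-fold above the cornea and 7.49-fold above the limbus. The result rests on this probe set. The other WFDC2 probe sets (1552261_at and 1553089_a_at) had values of 36.4 and 27.7 in conjunctiva, 33.0 and 27.8 in limbus, and 41.8 and 26.4 in cornea, all below the array medians. By the median over its probe sets WFDC2 was at -0.20 between the conjunctiva and the cornea on the log2 scale. SLPI (probe set 203021_at) had a value of 582 in conjunctiva, 361 in limbus, and 72.8 in cornea. Its limbus value was 4.96-fold above the cornea and close to the conjunctiva, which was 1.61-fold higher.

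For PI3 the probe sets disagreed. On the main probe set (203691_at) the values were 215 in limbus, 85.1 in conjunctiva, and 71.3 in cornea, so that the limbus exceeded the cornea by 3.02-fold and the conjunctiva by 2.53-fold. On the other (41469_at) the values were 118 in limbus, 136 in conjunctiva, and 35.2 in cornea. Both probe sets placed the limbus more than 3-fold above the cornea, at 3.02-fold and 3.34-fold. They differed on the conjunctiva, which was at 1.19-fold of the cornea on the former and 3.86-fold on the latter. Together SLPI, PI3, and PIGR made up the 3 of 10 genes at least 2-fold higher in limbus than in cornea, compared with 4.06% of all genes.

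The brighter PIGR probe set (226147_s_at) had a value of 3344 in conjunctiva, 1028 in limbus, and 85.4 in cornea. The conjunctiva was 39.2-fold above the cornea and 3.25-fold above the limbus, and the limbus was 12.0-fold above the cornea. On the other PIGR probe set (204213_at) the values were 167, 88.4, and 107, and the conjunctiva was highest by 1.56-fold over the cornea. PIGR therefore had a step at each boundary on its brighter probe set, while on the dimmer probe set no pair of tissues reached 2-fold.

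Part of the immunoglobulin cargo genes were also higher in conjunctiva. Of 16 genes of plasma cells and IgA, 6 were at least 2-fold higher in conjunctiva than in cornea and 5 were higher than in both other tissues. The light chain probe set IGLC1 was at 5164 in conjunctiva, 384 in limbus, and 115 in cornea, and the heavy chain IGHM was at 1139, 155, and 127. FKBP11, a secretory pathway isomerase that plasma cells and gland cells express, was at 2375, 576, and 201. The heavy chain of IgA (IGHA1) itself was at 72.9 in conjunctiva, 42.1 in limbus, and 47.1 in cornea, and the joining chain (JCHAIN) was at 85.4, 57.9, and 21.7. Both remained below 100 in every tissue. The median difference of the list was 0.81 on the log2 scale between the conjunctiva and the cornea and 0.85 between the conjunctiva and the limbus. The part of plasma cells in the PIGR values was not tested. SDC1, a plasma cell marker that epithelia express as well, ran the other way, with 288 in conjunctiva and 1271 in cornea, and 5.31% of all genes were at least 2-fold higher in cornea than in conjunctiva.

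PIP, the prolactin-induced protein of gland fluids, had a value of 49.1 in conjunctiva, 60.6 in limbus, and 55.6 in cornea on its single probe set (206509_at). Its values lay within 1.23-fold of each other and close to the array medians, so no difference was detectable on this probe set. PIP was also the 1 gene of the 10 that reached 100 in no tissue.

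By pairs of tissues, 8 of 10 were at least 2-fold higher in conjunctiva than in cornea, as were 5.68% of all genes, and 7 of 10 were higher in conjunctiva than in limbus, as were 2.31% of all genes. At the level of probe sets, 8 of the 15 were at least 2-fold higher in conjunctiva than in both other tissues, and the share over all 54675 probe sets was 1.10%. Of the 12 probe sets that reached 100 in any tissue, 11 were highest in conjunctiva and 1, of PI3, in the limbus. The 3 that did not reach 100 belonged to WFDC2 and PIP.

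The limbus lay at different places between its neighbors. For the 8 genes at least 2-fold higher in conjunctiva than in cornea, the position of the limbus was expressed as a percentage of the log2 distance from the cornea (0%) to the conjunctiva (100%). It was 77.0% for SLPI and 67.9% for PIGR, nearer to the conjunctiva. It was 22.3% for WFDC2, 12.6% for LTF, and 7.57% for LCN1, nearer to the cornea. The limbus was below the cornea for SCGB1D1 (-22.0%), LYZ (-27.4%), and SCGB2A1 (-60.3%). Over all 1123 genes that were at least 2-fold higher in conjunctiva than in cornea the median position was 60.3%, with quartiles of 38.6% and 81.6%, and 4.10% of them had the limbus below the cornea. Thus 6 of the 8 genes lay under the lower quartile and SLPI and PIGR lay between the median and the upper quartile. Without replicate arrays these positions have no error. For LTF, LCN1, SCGB1D1, and SCGB2A1 both ends of the comparison of limbus and cornea were near or below the array median, so their order there carries little signal. For LYZ the sign of that comparison, and with it of the position, turned under both scalings given above.

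**Figure D2:**
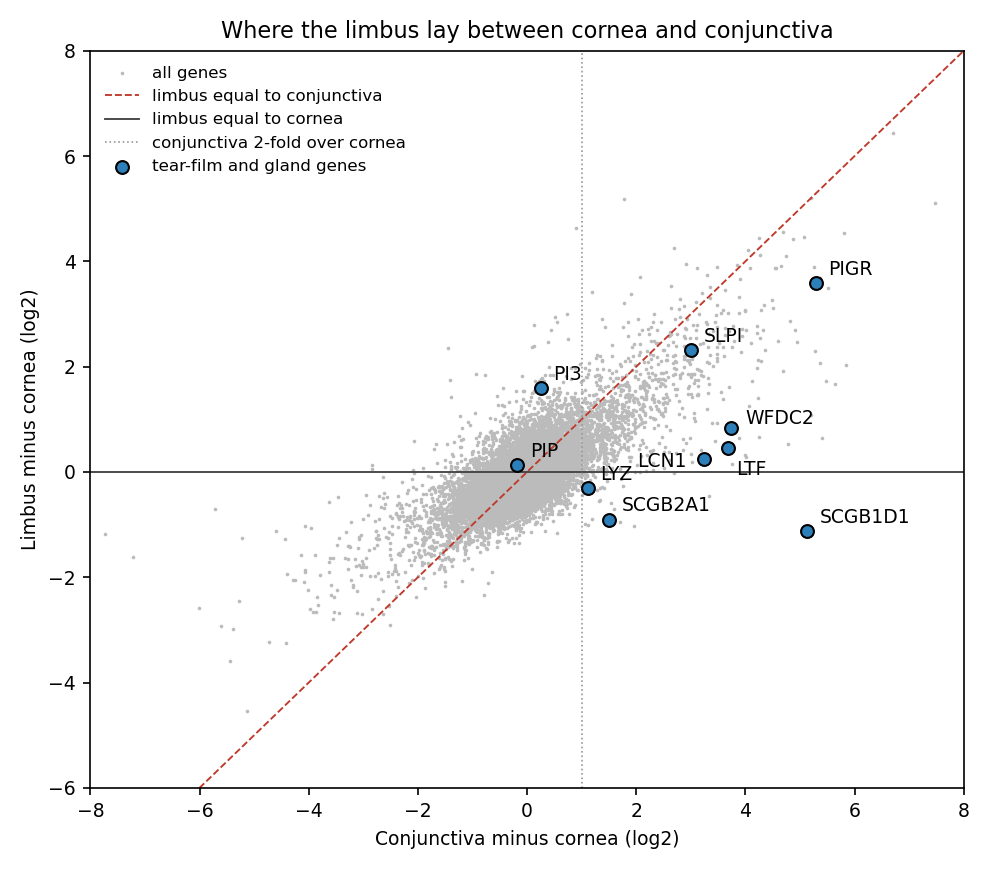
Log2 difference of the limbus from the cornea (y axis) against that of the conjunctiva from the cornea (x axis) for all 19775 genes (gray) and the 10 tear-film and gland genes (blue), 1 array per tissue. Genes on the horizontal line have equal levels in the limbus and the cornea, and genes on the dashed line have equal levels in the limbus and the conjunctiva; SLPI and PIGR lie nearest to the dashed line among the genes far to the right, whereas LTF, LCN1, WFDC2, and SCGB1D1 lie far below it.

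Other secreted proteins of the lacrimal and salivary glands were highest in conjunctiva in part. Of 25 measured, 9 reached 2-fold over the cornea and 5 over both other tissues, and the median of the list was 0.45 on the log2 scale between the conjunctiva and the cornea. Lacritin (LACRT), a growth factor-like glycoprotein of tears, was at 371 in conjunctiva, 27.0 in limbus, and 36.8 in cornea. OPRPN, a proline-rich protein of lacrimal fluid, was at 164 in conjunctiva, 25.0 in limbus, and 25.4 in cornea. DMBT1, a scavenger receptor protein of mucosal secretions that binds bacteria, was at 1290, 251, and 172, in the same order. Of the 9 genes over the cornea, 5 had a limbus position under the lower quartile of all genes. They were LACRT at -13.5%, OPRPN at -0.81%, AZGP1 at 11.2%, ZG16B at 17.9%, and DMBT1 at 18.7%. LACRT, OPRPN, and ZG16B were below the array medians in limbus and cornea, and AZGP1 was below them in every tissue. The positions of these genes, DMBT1 aside, therefore carry little signal. In SCGB3A1, which had the largest difference of the list at 18.7-fold between the conjunctiva and the cornea, the position was 65.6%. Salivary genes such as statherin (STATH) and histatin (HTN1) were at 15.9 or lower in every tissue. The cystatins CST2, CST4, and CST5 were at least 2-fold higher in conjunctiva than in cornea, with the limbus between. CST2 and CST4 are so alike that their probes may not separate them. The cystatin CST1 did not reach 2-fold between any tissues, with 39.0 in conjunctiva, 41.1 in limbus, and 23.1 in cornea. Carbonic anhydrase CA6 was the exception on its main probe set, with 250.3 in cornea, 60.6 in limbus, and 58.0 in conjunctiva. The CA6 probe sets disagreed, as 1 of the 2 was highest in conjunctiva.

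Other epithelial antimicrobial genes were spread over the tissues. Of 17 measured, 3 were at least 2-fold higher in conjunctiva than in both other tissues, namely the siderophore-binding lipocalin LCN2, the phospholipase PLA2G2A, which is abundant in tears, and the mucosal chemokine CXCL17. PLA2G2A was at 3741 in conjunctiva, 237 in limbus, and 74.7 in cornea, and CXCL17 was at 3163, 1363, and 162. For LCN2 the conjunctiva was 57.2-fold above the cornea and 14.0-fold above the limbus. The calprotectin subunit S100A9 was nearly the same in the conjunctiva (456) and the limbus (452) and low in the cornea (75.2). The other subunit, S100A8, was at 53.8 in conjunctiva, 101 in limbus, and 35.3 in cornea on its main probe set. The chemokine CXCL14 and the defensin DEFB1 were highest in cornea, unlike any of the 10 genes on their main probe sets. CXCL14 was at 7637 in cornea, 5517 in limbus, and 1292 in conjunctiva, and DEFB1 was at 199, 68.8, and 65.5.

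**Figure D3:**
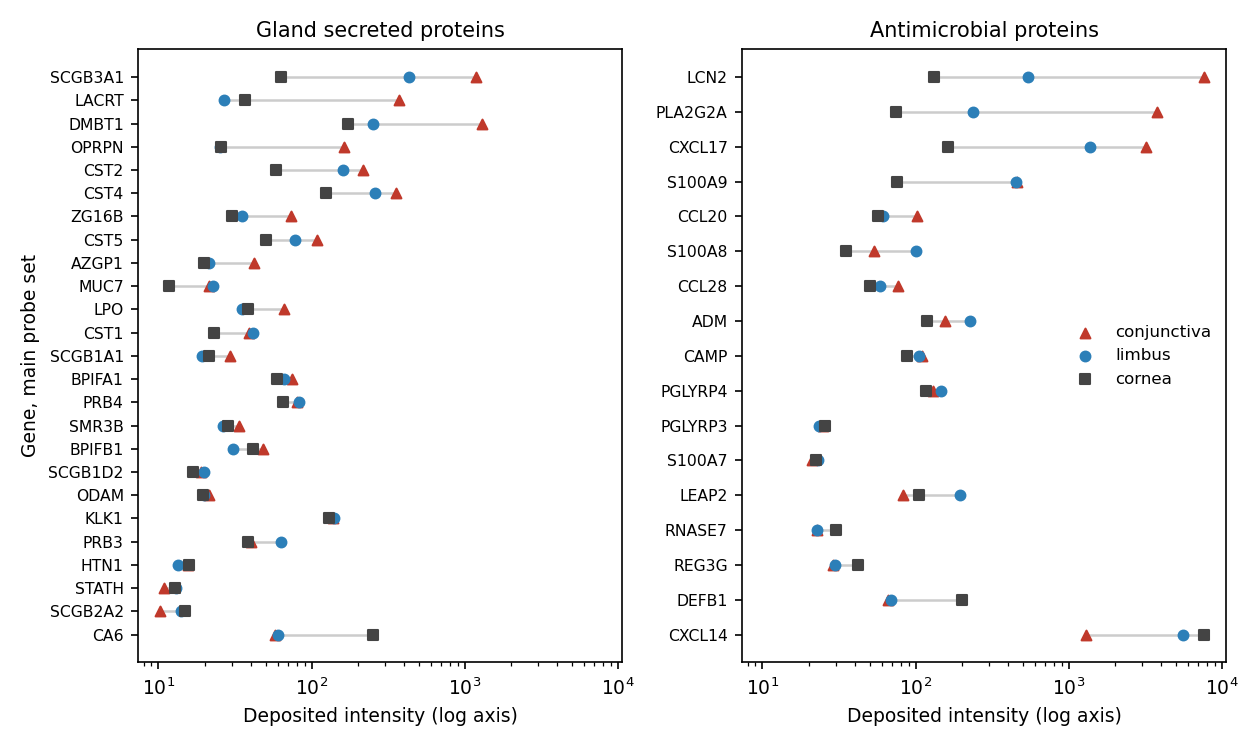
Deposited intensity (x axis, log scale) of other lacrimal and salivary gland secreted proteins (left) and other epithelial antimicrobial proteins (right) in conjunctiva (triangles), limbus (circles), and cornea (squares), 1 array per tissue, with genes ordered by the difference between the conjunctiva and the cornea. On the main probe set of each gene, SCGB3A1, LACRT, DMBT1, LCN2, PLA2G2A, and CXCL17 lead toward the conjunctiva, and CA6, DEFB1, and CXCL14 toward the cornea.

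Relatives of the WAP genes were mostly low. Of 13 measured WAP-domain genes and genes of the same locus, WFDC1 was the only 1 at least 2-fold higher in conjunctiva than in either tissue, with 303 in conjunctiva, 120 in limbus, and 109 in cornea, and 2 of the 13 reached a value of 100. The other of these, WFDC3, was at 146, 105, and 145. Among 13 serine proteases, which included leukocyte elastase and epithelial proteases, PRSS8 (prostasin, a membrane-anchored epithelial protease) was at least 2-fold higher in conjunctiva than in both other tissues, with 395, 141, and 134. TMPRSS4, another epithelial membrane protease, was at 1730 in conjunctiva, 1028 in limbus, and 473 in cornea, and the kallikrein KLK11 was at 156, 183, and 61.3.

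Genes of gland cells were also read. Of 16 acinar and duct cell genes, 6 were at least 2-fold higher in conjunctiva than in cornea, and KRT7, AQP5, CHRM3, and KCNMA1 were among them. The water channel AQP5 was at 1171 in conjunctiva, 927 in limbus, and 199 in cornea, and the potassium channel KCNMA1 was at 1664, 1001, and 66.4. The muscarinic receptor CHRM3, on the main of its 6 probe sets, was at 697, 700.4, and 19.0. The conjunctiva was highest on 2 of the 6 CHRM3 probe sets. The limbus position was 67.6% for KRT7, 86.8% for AQP5, 100.1% for CHRM3, 84.2% for KCNMA1, 14.8% for BHLHA15, and 24.0% for SLC26A4. The median over these 6 genes was 75.9%, and the single positions ran from 14.8% to 100.1%. The part of gland cells in the values of the 10 genes was not tested. SLC26A4, an anion exchanger, was the 1 gene of this list that passed in the conjunctiva against both other tissues, at 38.4, 17.8, and 14.0, all below the array medians. BHLHA15, a transcription factor of serous acinar cells, was at 49.9 in conjunctiva, 26.7 in limbus, and 24.0 in cornea, also below the array medians. KIT, a receptor tyrosine kinase, was the 1 gene of the list at least 2-fold higher in cornea than in conjunctiva, with 6078 in cornea, 1791 in limbus, and 1607 in conjunctiva.

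Of 13 goblet cell genes, 8 were at least 2-fold higher in conjunctiva than in cornea and 7 were higher than in both other tissues. The trefoil factor TFF1 was at 1568 in conjunctiva, 222 in limbus, and 83.7 in cornea, and AGR3, a protein of the secretory pathway, was at 968, 634, and 28.7. The median difference of the list was 1.28 on the log2 scale between the conjunctiva and the cornea and 1.18 between the conjunctiva and the limbus. MUC5AC, the goblet cell mucin that marks the conjunctiva, had a limbus position of 7.84%. The median over the 8 goblet cell genes with a position was 9.71%, from -53.1% for AGR2 to 88.0% for AGR3. Of 13 lipid genes of the meibomian gland, the oil gland of the eyelid, 0 were at least 2-fold higher in conjunctiva than in both other tissues. SCD, the stearoyl-CoA desaturase of this list, was at 172 in conjunctiva, 614 in limbus, and 2395 in cornea. The cholesterol acyltransferase SOAT1 was at 372, 262, and 189, and CIDEA, a lipid droplet protein, at 74.3, 192, and 285, in the same order. The part of goblet cells in the values of the 10 genes was not tested.

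**Figure D4:**
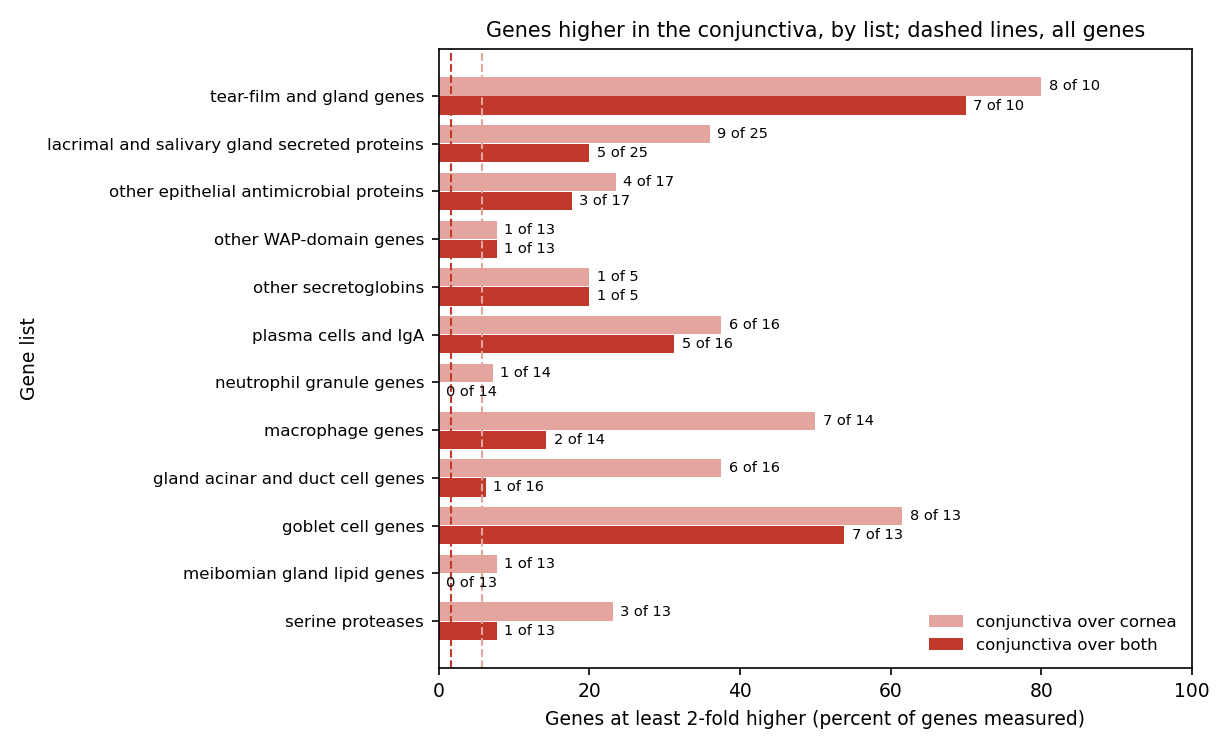
Percentage of measured genes (x axis) at least 2-fold higher in conjunctiva than in cornea (light bars) and than in both other tissues (dark bars), for the 10 tear-film and gland genes and 11 other gene lists (y axis), 1 array per tissue. Dashed lines give the shares over all genes, 5.68% and 1.68%; the 10 genes (8 and 7 of 10) and the goblet cell genes (8 and 7 of 13) have the highest shares.

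The tissue labels were read against defining genes. The corneal keratin KRT12 was at 8068 in cornea, 2633 in limbus, and 54.3 in conjunctiva, and MUC5AC was at 102 in cornea, 127 in limbus, and 1618 in conjunctiva. All 4 conjunctival check genes were at least 2-fold higher in conjunctiva than in cornea, but MUC5AC was the 1 of them that was also 2-fold above the limbus. On their main probe sets the keratins KRT13 and KRT4 were higher in limbus than in conjunctiva, with 1950 in conjunctiva, 5797 in limbus, and 303 in cornea for KRT13 and 1122, 2084, and 181 for KRT4, and KRT19 was at 4272, 2291, and 739. Of the 2 KRT4 probe sets, 1 was highest in conjunctiva. These keratins therefore did not mark the conjunctiva against the limbus, and KRT13 was more than 2-fold higher in limbus. The basal keratin KRT15 was at 182 in cornea, 3159 in limbus, and 3520 in conjunctiva. The 3′ to 5′ signal ratio of the control probe sets ranged from 3.12 to 4.58 for GAPDH and from 10.3 to 11.8 for ACTB over the arrays, and the part of RNA length in the values was not tested.

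Genes of no list were ranked by the distance of their centered log2 values over the 3 tissues from those of the 10 genes, among 10902 genes with a value of at least 100. Nearest to the median profile of the 10 genes were RGCC (distance 0.11), KCNE4 (0.12), MLIP (0.18), FOXC2 (0.26), and TRBC1 (0.31). Nearest to LTF were the complement component C7 (0.16), the lectin ITLN1 (0.21), and the calcium-binding protein S100P (0.25). ITLN1 was at 533 in conjunctiva, 66.8 in limbus, and 40.1 in cornea. Nearest to LCN1 was ELAPOR1 (0.16), with 367, 51.4, and 44.9 in the same order. SLPI lay nearest to CPNE4 (0.06), RHOBTB3 (0.09), and FBN1 (0.09), and PIGR to RBPMS (0.07), COL3A1 (0.23), and KYNU (0.25). A profile over 3 arrays has few degrees of freedom, and many genes lie close to any such profile.

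Of the 10 genes, 8 are named in the RefSeq annotation of the vervet assembly mChlSab1.0.hap1, and SCGB1D1 and SCGB2A1 were not found there by symbol. SLPI and PI3 are neighbors among its named genes, and WFDC12 and WFDC5 follow PI3. Of 32 distinct other genes within 3 named genes on either side of the 8, 0 were at least 2-fold higher in conjunctiva than in both other tissues, compared with 1.68% of all genes. With so few neighbors, a count of 0 is close to that share. WFDC12 was at 93.8 in conjunctiva, 68.2 in limbus, and 79.8 in cornea, and MATN4, on the other side of SLPI, was at 99.3, 81.8, and 69.7.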

How the data were processed

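The authors amplified total RNA, hybridized it to Affymetrix human U133 Plus expression arrays, and applied RMA (justRMA) to each array joined to a constant set of reference arrays; the version is not given in the sources used here. The deposited table holds linear-scale intensities of 54675 probe sets. Since the arrays were not normalized with each other, differences of scale can remain. In the array's annotation 41097 probe sets had 1 symbol and were used by name, 1801 had more than 1, and 11777 had none in the table used.

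Python 3.11.15, numpy 2.4.6, pandas 2.3.3, and matplotlib 3.10.9 were used. A gene was read on the probe set whose mean log2 value was highest. A difference counted when it was at least 2-fold. The number of arrays, 1 per tissue, limits the precision, and no test was made. The selection was also run on simulated data with an assumed noise, which says nothing about the error of these arrays. Named genes are the 10 genes, the 3 genes of each list with the largest difference between conjunctiva and cornea at a value of at least 100, and the nearest profiles; further genes, and the limbus position, were chosen after values were seen. Some genes are in more than 1 list. The genes and lists were chosen with earlier results of these data known.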

Additional observations from a re-analysis of the deposited data

How the results depend on the processing

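No paired analysis was possible because there was 1 array per tissue, and for the same reason no replicate could be left out. Settings varied were the probe set of a gene, an added 32 before the ratio, the scaling between arrays, a minimum value of 100, the threshold, and the unit of counting. The count of 7 genes higher in conjunctiva than in both other tissues ranged from 5 at 3-fold to 8 at 1.5-fold, and by the median over all probe sets it was 6. The count over the cornea ranged from 6 to 8 among genes.

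Dividing each array by its hybridization controls put the median gene of the limbus 0.61 above the cornea on the log2 scale, that of the conjunctiva 0.33 above the cornea and -0.29 from the limbus, and 97.3% of the 2-fold differences between these tissues were then higher in limbus, in place of 61.8%. With the same scaling 79.1% were higher in conjunctiva than in cornea, in place of 51.7%, and 12.9% higher in conjunctiva than in limbus, in place of 46.8%. Under it 5 of the 10 genes were at least 2-fold higher in limbus than in cornea, with LTF and WFDC2 added, as were 18.5% of all genes in place of 4.06%, the median of the 10 was 1.01, and 0 were higher in cornea; relative to the median gene the counts were 8 over the cornea and 7 over the limbus in the conjunctiva, and 3 over the cornea in the limbus. The count of 1 gene higher in cornea than in limbus became 0 with the pseudocount, 2 at 1.5-fold, and 0 at 3-fold. Of 180 differences of single genes recomputed, 172 kept their side of the threshold, 4 fell under it, 3 rose past it, and 1 reversed: WFDC2 between the conjunctiva and the cornea was -0.20 by the median over its probe sets, where 2 dim probe sets set the median. Part of the 180 could not change. The probe set with the highest single value was the main one for every gene, which fixed 30 differences. For the 6 genes with 1 probe set, the median over probe sets was also the main value. The number of genes with a limbus position under the lower quartile was 6 and became 5 by that median, in an alternative chosen after seeing the data.

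Values near or below the array medians (48.8 to 50.7) limit what can be read for LTF, LCN1, SCGB1D1, and SCGB2A1 in limbus and the cornea, and for PIP in all tissues.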
